A study of Homo sapiens with 8 samples.

Results

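The SR proteins are a family of splicing factors that bind exons and recruit the spliceosome to nearby splice sites. The family was represented by 10 genes, SRSF1, SRSF2, SRSF3, SRSF4, SRSF5, SRSF6, SRSF7, SRSF9, SRSF10 and SRSF11. They were chosen by name and not by their values, although earlier results of these data were known. All annotated transcripts of these genes in GENCODE version 44 were taken, which gave 120 of the 254070 transcripts in the count table, 86 of them with at least 1 count. All 10 genes were among the 7597 genes with enough counts to be tested, out of 16474 genes with a count.

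SR proteins carry RNA-binding domains and a tail rich in arginine and serine, and kinases of the SRPK and CLK families phosphorylate that tail. Cells hold SR protein levels in check by splicing their own pre-mRNAs in a form that is not translated into the full protein. This form either includes a poison exon, a cassette exon with a premature stop codon, or splices an intron out of the 3′ UTR or keeps one, and such mRNAs are degraded by nonsense-mediated decay. PTBP1 is an RNA-binding protein that binds pyrimidine-rich RNA, often next to cassette exons, and mostly represses them.

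The study asked how loss of PTBP1 changes expression and splicing in leukemia cells. Long-read cDNA sequencing was performed on MOLM-13, an established human acute myeloid leukemia cell line. The 4 shPTBP1 libraries came from cells with a lentiviral, doxycycline-inducible shRNA against PTBP1, and the 4 shSCR libraries, called shControl in the sample labels, from cells with a scrambled shRNA in the same vector. Both groups therefore carried the vector, its mCherry marker and the inducible ΔLNGFR receptor, and both were treated with doxycycline for 9 days. One shRNA was described for each group, so effects of the shRNA itself and of PTBP1 loss cannot be told apart, and p-values measure only the spread between these libraries.

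The sequences below show where the decay-annotated isoforms of 6 of these genes acquire their premature stop, or, for SRSF2, the stop that the coding and decay-annotated isoforms share. All were read from hg38 on the strand of the transcript, 5′ to 3′, and the capitals mark the stop codon. For SRSF3-203 (chr6:36599781-36599854), SRSF6-202 (chr20:43459113-43459304), SRSF7-204 (chr2:38749319-38749386, minus strand) and SRSF11-217 (chr1:70230517-70230615), the first 40 bases are intron and the rest is the poison exon up to its stop.
SRSF3-203: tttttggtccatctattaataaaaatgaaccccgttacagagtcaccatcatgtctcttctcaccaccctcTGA
SRSF6-202: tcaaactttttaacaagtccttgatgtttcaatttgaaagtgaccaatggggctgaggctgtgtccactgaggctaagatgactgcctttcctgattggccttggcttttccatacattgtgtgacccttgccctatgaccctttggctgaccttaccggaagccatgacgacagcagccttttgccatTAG
SRSF7-204: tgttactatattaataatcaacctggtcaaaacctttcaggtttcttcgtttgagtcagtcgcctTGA
SRSF11-217: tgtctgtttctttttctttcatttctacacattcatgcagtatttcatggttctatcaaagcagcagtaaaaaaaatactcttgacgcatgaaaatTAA

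The stop was reached after 34 bases of the 456-base exon of SRSF3, after 28 bases of the 449-base exon of SRSF7, after 152 bases of the 268-base exon of SRSF6 and after 59 bases of the 62-base exon of SRSF11. Of the decay-annotated isoforms that carried most counts in SRSF7, SRSF9 and SRSF2, none used such an exon for its stop. SRSF7-208 kept an intron of 875 bases that holds the whole poison exon, and its stop lay 13 bases into that intron (chr2:38749516-38749558, minus strand, shown after the last 30 bases of the exon before it). SRSF9-208 started an internal exon 8 bases later than the main isoform (chr12:120465749-120465827, minus strand, 40 intron bases, then the 8 bases that the shifted splice site removes, then the exon), and met a stop after 31 bases. SRSF2-208 had the same reading frame and stop as the main coding isoform (chr17:76736161-76736190, minus strand, the last coding bases).
SRSF7-208: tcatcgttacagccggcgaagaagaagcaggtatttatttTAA
SRSF9-208: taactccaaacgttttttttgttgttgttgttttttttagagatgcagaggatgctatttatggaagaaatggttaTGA
SRSF2: cctgaagaggaaggagcggtgtcctctTAA

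What set SRSF2-208 apart was an intron of 498 bases (chr17:76734563-76735060) removed from the last exon, in addition to the intron of 995 bases that the main isoform SRSF2-202 also removes after the stop. This placed the last junction 105 bases after the stop codon, against 7 bases in SRSF2-202, and the coding isoform SRSF2-203 had no junction after its stop. A junction well downstream of a stop codon is the known trigger of nonsense-mediated decay. Over the 17 SR exons taken as poison exons below, the 100 intron bases before the exon were 36.0% to 70.0% pyrimidine (median 56.0%). The median over the 7537 such exons of all genes was 57.0%. The letters TCTT, the UCUU of PTBP1 binding sites read on the transcript strand only, occurred in 12 of the 17 windows (70.6%) and in 61.0% of all 7537 windows of the same length. Most matches, 4, stood before the SRSF11 exon shown above. A match is a description of the sequence and not a site of binding.

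The libraries held 1528449 to 1613342 transcript counts each. The 10 SR genes took 0.126% to 0.138% of a library, 1963 to 2226 counts. The level of PTBP1 itself, in CPM (counts per 1000000 counts of the library) scaled by TMM (a normalization between libraries), was 6.33, 9.91, 8.56 and 14.7 in the shPTBP1 libraries and 39.9, 57.3, 42.7 and 50.05 in the shSCR libraries. The groups did not overlap, and the level was lower with shPTBP1 by 2.26 on the log2 scale (log2 fold change -2.26, edgeR adjusted p = 7.18e-05). Of 10 myeloid markers, 8 were tested and CSF1R alone was called, lower with shPTBP1, and the summed level of the 10 was 641 to 731 CPM against 588 to 611 CPM. LYZ was the largest part of that sum. SPI1 and FLT3, which were not tested, held only 1 and 53 counts over all libraries. The 13 markers of other cell types summed to 11.4 to 18.3 CPM with shPTBP1 and 15.0 to 20.5 CPM with shSCR. Of these, 5 were at 0, among them the T cell markers CD3E and CD3D. The fibroblast marker COL1A2 (119 counts over all libraries) and the epithelial marker KRT8 (47 counts) held the most.

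SRSF2 was the only SR gene whose total level was called, and it was lower in the shPTBP1 cells. SRSF2 (SC35, ENSG00000161547, chr17:76734115-76737333, minus strand) binds exonic enhancers and is a frequent site of mutation in myeloid neoplasms. Its counts were 29, 21, 53 and 54 in the shPTBP1 libraries and 72, 137, 79 and 138 in the shSCR libraries. In TMM-normalized CPM the values were 18.3, 13.9, 34.9 and 34.6 with shPTBP1, and 44.2, 87.2, 52.7 and 88.5 with shSCR. All 4 shPTBP1 libraries lay below all shSCR libraries, although each group split into a lower and a higher pair. The means were 25.4 ± 10.9 and 68.2 ± 23.0 (SD, n = 4), a 2.68-fold lower level with shPTBP1. The log2 fold change was -1.42 (SE 0.28, 95% interval -2.03 to -0.81, edgeR quasi-likelihood test, adjusted p = 0.0127), and the exact permutation test, two-sided over the 8 libraries, gave p = 0.0286, the smallest it can give for 4 against 4. Without single libraries the log2 fold change ranged from -1.61 to -1.22 and the gene stayed called each time. One of the 10 SR genes was therefore called lower and 0 higher, against 3.19% lower and 2.36% higher among all genes tested.

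**Figure D1:**
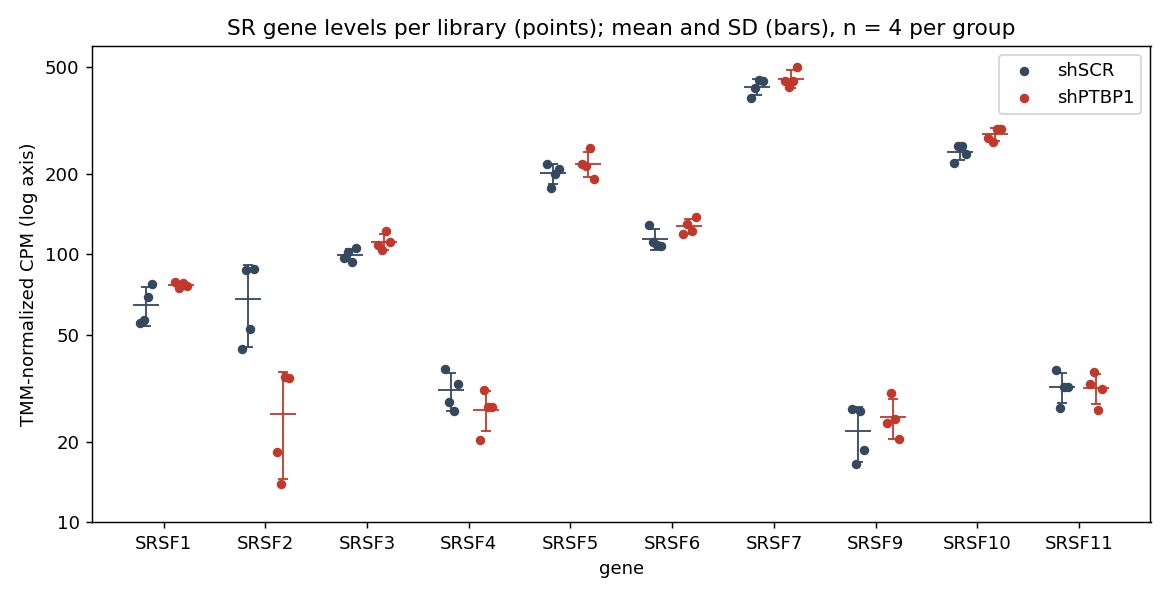
Levels of the 10 SR genes in TMM-normalized CPM (log axis), 4 shSCR libraries in dark and 4 shPTBP1 libraries in red, with points for libraries and bars for the mean and SD. SRSF2 drops from 68.2 to 25.4 CPM on average with no overlap, and the other genes sit at similar heights in both groups.

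The lower level of SRSF2 was seen in its main coding isoform. Counts of transcripts annotated as coding were 9, 6, 33 and 35 with shPTBP1, and 48, 110, 58 and 107 with shSCR. The decay-annotated class, all of it SRSF2-208, held 14, 6, 10 and 12 counts with shPTBP1, and 16, 19, 11 and 23 with shSCR. The retained-intron class held 6, 9, 10 and 7 counts with shPTBP1 and 8, 8, 10 and 8 with shSCR. The coding counts of the groups did not overlap, whereas those of the decay-annotated and retained-intron classes did. The class level of the coding transcripts had a log2 fold change of -1.94 (95% interval -2.85 to -1.03, edgeR adjusted p = 0.0175), and without shPTBP1 replicate 2, shSCR replicate 2 or shSCR replicate 4 the adjusted p was 0.0557, 0.0524 and 0.0646. That of the decay-annotated transcripts was -0.69 (95% interval -1.37 to -0.02, adjusted p = 0.249). The retained-intron class had too few counts to be tested. The coding class of SRSF2 was the only one of 15 SR classes called, and 3.05% of all classes were called lower.

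As shares of all SRSF2 counts, the coding class made up 31.0%, 28.6%, 62.3% and 64.8% in the shPTBP1 libraries, and 66.7%, 80.3%, 73.4% and 77.5% in the shSCR libraries. Again the groups did not overlap, and the shPTBP1 libraries 1 and 2, which had the fewest SRSF2 counts, stood furthest below. The mean share was 46.7% ± 19.5 against 74.5% ± 5.92 (SD, n = 4, exact permutation test p = 0.0286, adjusted p = 1.0 over the 12311 class shares of all genes). This test can give no p below 0.0286 for 4 against 4 libraries, and 2.56% of the class shares of all genes reached it. No class share could therefore pass the adjustment, so the adjusted p says nothing about SRSF2. The retained-intron class rested on 6 to 10 counts a library and made up 20.7%, 42.9%, 18.9% and 13.0% with shPTBP1 and 11.1%, 5.84%, 12.7% and 5.80% with shSCR. These means, 23.8% ± 13.1 and 8.85% ± 3.56, came from groups that did not overlap (exact permutation test p = 0.0286, adjusted p = 1.0), and without shPTBP1 replicate 2 their difference was 8.66 instead of 15.0 percentage points. The share of the decay-annotated class was 48.3%, 28.6%, 18.9% and 22.2% with shPTBP1 and 22.2%, 13.9%, 13.9% and 16.7% with shSCR, and these values overlapped (exact permutation test p = 0.0857), with a difference of 12.8 percentage points that was 6.55 without shPTBP1 replicate 1. Of 27 class shares in the SR genes, the coding and retained-intron shares of SRSF2 were the 2 whose groups did not overlap, and over all genes 2.56% did not overlap. The usage test of edgeR (diffSpliceDGE), which asks whether a class takes another part of its gene, called none of the 10 SR classes in 5 genes that it could test, 0 of them at an unadjusted p under 0.05, and limma's diffSplice called 0 as well. For SRSF2 diffSpliceDGE covered the coding and decay-annotated classes only, because the retained-intron class had too few counts, and its adjusted p was 1.0. Over all genes it called 0.893% of the classes.

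**Figure D2:**
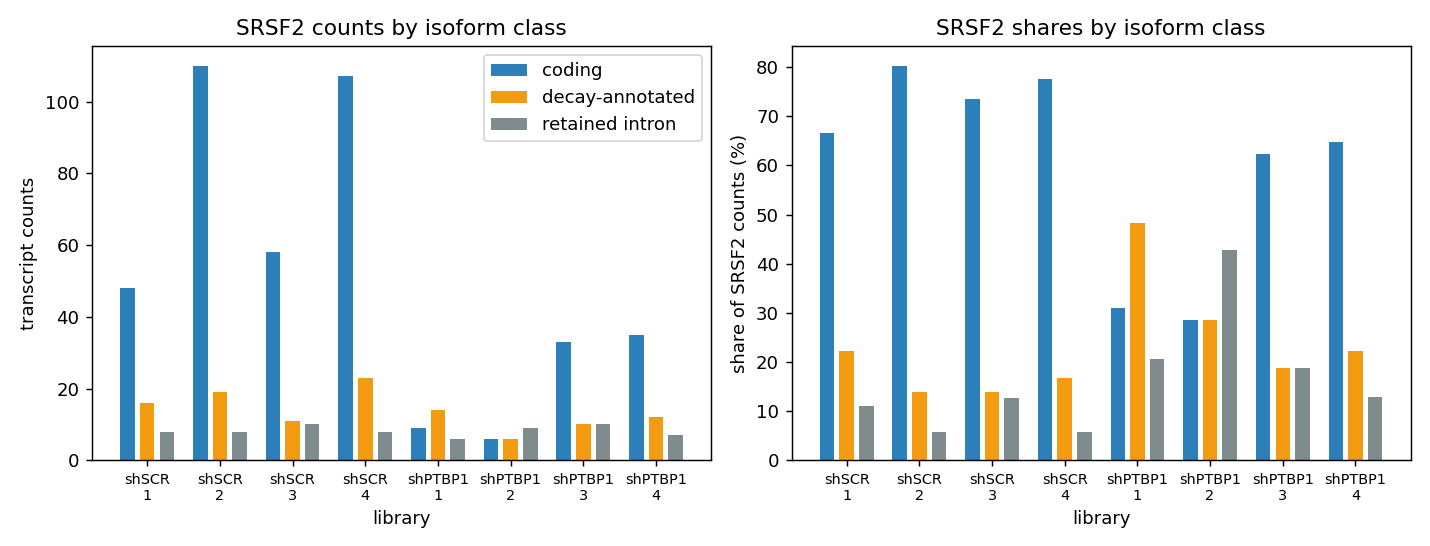
SRSF2 transcript counts (left) and shares of the gene's counts in percent (right) by isoform class in each library. The coding bars are lower in the shPTBP1 libraries (6 to 35 counts) than in the shSCR libraries (48 to 110 counts), while the retained-intron bars stay between 6 and 10 counts.

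Among single transcripts, SRSF2-202, the MANE Select form (1888 bases in 3 exons), held 9, 6, 20 and 19 counts with shPTBP1 and 33, 81, 39 and 91 with shSCR. It was the only one of 23 SR transcripts tested whose level was called (log2 fold change -2.16, 95% interval -3.01 to -1.30, edgeR adjusted p = 0.00588), and 3.0% of all transcripts were called lower. The call held without each single library, with log2 fold changes from -2.41 to -1.90. SRSF2-203, which keeps the intron after the stop, held 0, 0, 13 and 15 counts against 14, 27, 18 and 16 (log2 fold change -1.40, adjusted p = 0.256). The decay-annotated SRSF2-208 had a log2 fold change of -0.70 (95% interval -1.35 to -0.04, adjusted p = 0.224). The retained-intron form with most counts, SRSF2-209, held 3, 7, 7 and 2 counts against 3, 4, 6 and 5. The share of SRSF2-202 in its gene was 33.1% ± 4.11 with shPTBP1 and 55.1% ± 9.17 with shSCR, without overlap (exact permutation test p = 0.0286), and the usage test gave an adjusted p of 1.0.

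On the opposite strand MFSD11 shares 823 exonic bases with SRSF2, and whether the counting used strand is not given in the sources used here. The counts of MFSD11 were 20, 19, 25 and 22 with shPTBP1 and 17, 29, 21 and 23 with shSCR, so the 2 groups overlapped. SRSF9 shares 1725 exonic bases with GATC on the opposite strand, and its values carry the same uncertainty. It also shares 124 exonic bases with NRAV on the same strand, which strand alone would not separate. NRAV held 19 to 31 counts per library. The 11 SRSF pseudogenes that GENCODE lists were at 0 in every library. The paper describes a filter on the mapping quality of reads, which can remove reads that match a gene and its pseudogene alike. These counts of 0 therefore do not show whether such reads were present.

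The other 9 SR genes were not called in either direction. Their log2 fold changes lay between -0.24 and 0.25, with a median of 0.16, and 7 of 9 were above 0, while the median of all genes tested was -0.000141. Over all 10 genes the groups did not overlap for SRSF2 and SRSF10, and over all genes 12.7% did not overlap. The closest to the threshold was SRSF10, which acts as a repressor of splicing when it loses its phosphates, as in mitosis and after heat shock. Its level was 271, 262, 294 and 295 CPM with shPTBP1 and 219, 253, 255 and 236 CPM with shSCR. All shPTBP1 values were above all shSCR values, with a log2 fold change of 0.22 (95% interval 0.07 to 0.38, edgeR adjusted p = 0.100).

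SRSF1, a general activator of splicing, was at 79.1, 74.7, 78.3 and 76.2 CPM with shPTBP1 and at 55.3, 56.7, 69.4 and 77.6 CPM with shSCR. The groups overlapped through shSCR replicate 4 (log2 fold change 0.25, 95% interval 0.01 to 0.50, edgeR adjusted p = 0.249). SRSF9, its close relative, had a log2 fold change of 0.17 (95% interval -0.26 to 0.60, adjusted p = 0.709). SRSF3 and SRSF7 also act as adaptors for mRNA export. SRSF3 was at 111 ± 7.68 against 99.5 ± 5.47 CPM (log2 fold change 0.16, 95% interval -0.02 to 0.34, adjusted p = 0.320). SRSF7 was at 453 ± 33.9 against 423 ± 29.1 CPM (log2 fold change 0.10, 95% interval -0.06 to 0.25, adjusted p = 0.508).

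SRSF4, SRSF5 and SRSF6 form a group of related proteins with a pair of RNA recognition motifs each. Their log2 fold changes were -0.24 (95% interval -0.62 to 0.13, edgeR adjusted p = 0.492), 0.12 (-0.07 to 0.31, adjusted p = 0.522) and 0.16 (-0.03 to 0.35, adjusted p = 0.348). SRSF11, an SR-related protein that contacts the 3′ splice site machinery, had a log2 fold change of -0.01 (95% interval -0.34 to 0.32, adjusted p = 0.983), and its direction changed with the libraries used. The intervals of SRSF3, SRSF5, SRSF6, SRSF7 and SRSF10 leave room for changes of at most 0.38 on the log2 scale in either direction.

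**Figure D3:**
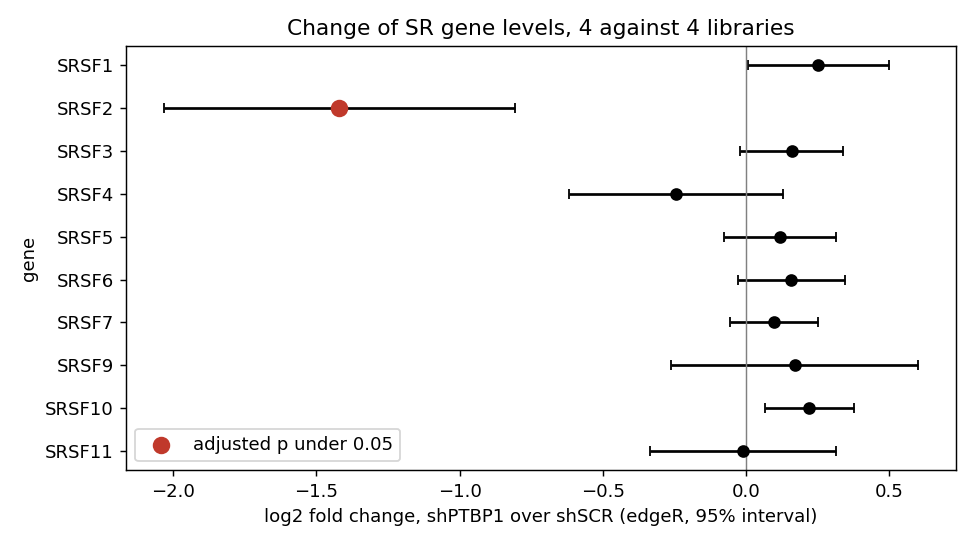
Log2 fold change of each SR gene, shPTBP1 over shSCR, from edgeR with its 95% interval (4 against 4 libraries). SRSF2 lies at -1.42, marked in red as called, and the other 9 genes lie between -0.24 and 0.25.

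Levels of different genes were compared per length, as CPM per kilobase of the transcripts counted. In shSCR cells SRSF7 was highest with 299 ± 20.6 CPM per kilobase (SD, n = 4), followed by SRSF5 with 102 ± 8.80 and SRSF10 with 89.3 ± 6.13. SRSF2 was next with 36.1 ± 12.2, then SRSF6 with 26.5 ± 2.37, SRSF3 with 24.4 ± 1.34, SRSF9 with 18.6 ± 4.30, SRSF1 with 13.7 ± 2.25, SRSF4 with 12.3 ± 2.03 and SRSF11 with 10.5 ± 1.37. The range of SRSF7 (272 to 316) stood clear of that of SRSF5 (90.0 to 110), whereas SRSF5 and SRSF10 (81.3 to 94.4) overlapped. SRSF2 (23.4 to 46.9) lay below SRSF10 and overlapped with SRSF6 and SRSF3, and SRSF3 (22.9 to 26.0) lay just above SRSF9 (14.1 to 22.5). From SRSF9 down each gene overlapped with the next. In shPTBP1 cells SRSF2 was at 13.5 ± 5.78 CPM per kilobase, and its range (7.35 to 18.5) overlapped with those of SRSF9 (17.4 to 25.8) and SRSF1 (15.7 to 16.7). A long read can count a molecule once whatever its length, but how the counting treated length is not given in the sources used here. Without division by length the order differed. In CPM, SRSF10 (241) stood above SRSF5 (200.5), SRSF6 (114) and SRSF3 (99.5) stood above SRSF2 (68.2), and SRSF9 (21.9) was lowest.

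Decay-annotated isoforms were a small part of most SR genes in both groups. Summed over the 10 genes they made up 1.80% to 2.23% of the counts with shPTBP1 and 2.24% to 2.85% with shSCR, and without SRSF2 1.29% to 1.77% against 1.27% to 2.04%. In all protein-coding genes together the share was 3.33% to 3.46% with shPTBP1 and 3.39% to 3.43% with shSCR. SRSF2 had the highest mean decay-annotated share in both groups and SRSF9 the next (11.8% ± 5.60 with shPTBP1 against 11.9% ± 3.66 with shSCR). SRSF11 was at 2.33% ± 2.76 against 8.74% ± 4.34 and SRSF7 at 3.56% ± 0.46 against 3.48% ± 1.33. For SRSF9, SRSF11 and SRSF7 the groups overlapped, with an exact permutation p of 0.943, 0.0857 and 1.0. In SRSF1, SRSF3, SRSF5 and SRSF6 the mean share was at most 0.335% in either group. The decay-annotated transcripts of SRSF4 and SRSF10 were at 0 in all libraries, which allows a share of up to 1.85% and 0.173% over the 4 shPTBP1 libraries and up to 1.54% and 0.199% over the 4 shSCR libraries.

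**Figure D4:**
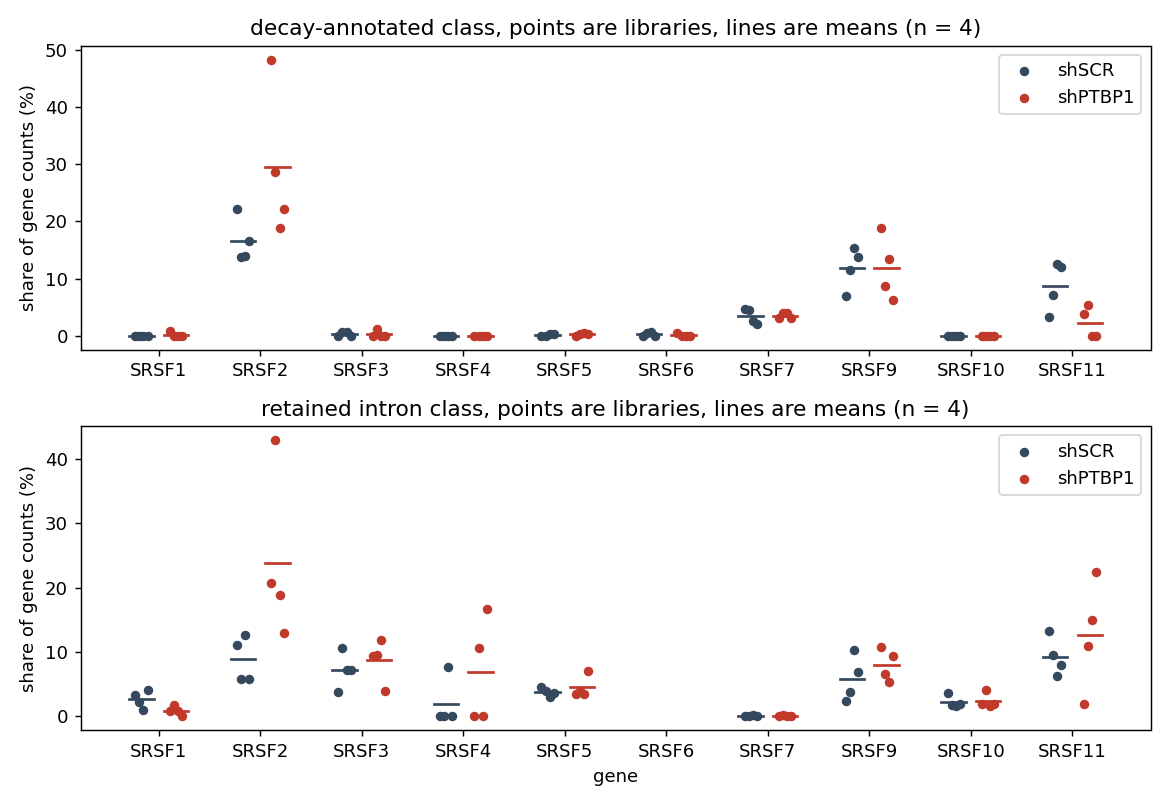
Share of each SR gene's counts on decay-annotated transcripts (top) and on retained-intron transcripts (bottom), in percent, with points for libraries and lines for means of 4. SRSF2 has the highest mean of both classes with shPTBP1, 29.5% and 23.8%, and its retained-intron values do not overlap between the groups.

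SRSF7-208, the retained-intron form with a premature stop shown above, was the most abundant decay-annotated SR transcript, with 18, 24, 23 and 25 counts in the shPTBP1 libraries and 27, 28, 16 and 12 in the shSCR libraries. The 2 groups overlapped widely (share of the gene 3.23% ± 0.51 against 3.18% ± 1.32). The main coding form of SRSF7, SRSF7-202, made up 71.5% ± 1.57 and 71.2% ± 1.83 of the gene. SRSF9-208 held 4, 3, 4 and 1 counts with shPTBP1 and 2, 3, 4 and 1 with shSCR, and its splice site lies only 8 bases from the main one. The decay-annotated forms with most counts in the other genes held few counts over all libraries, 1 for SRSF1-204, 2 for SRSF3-203, 3 for SRSF6-202 and 6 for SRSF5-211, except SRSF11-217, which is described with its exons.

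Of the main coding forms, SRSF3-202 (92.3% ± 3.31 of its gene in shSCR), SRSF6-201 (98.2% ± 1.11), SRSF4-201 (98.1% ± 3.85) and SRSF9-201 (79.4% ± 7.87) dominated, and SRSF5-217 (48.8% ± 2.86), SRSF10-203 (40.4% ± 4.07) and SRSF11-203 (38.0% ± 6.33) shared their genes with other coding forms. The means with shPTBP1 were 91.0%, 98.2%, 89.9%, 78.8%, 48.9%, 40.9% and 34.1%, and each overlapped with shSCR. In SRSF1, the coding form SRSF1-205, which keeps the last intron of SRSF1-201 and ends its reading frame there, held 28, 23, 23 and 26 counts with shPTBP1 and 0, 0, 26 and 0 with shSCR, next to SRSF1-201 with 92, 84, 94 and 90 against 86, 84, 74 and 94. The count of 26 in shSCR replicate 3 lay within the shPTBP1 range, and the usage test gave an adjusted p of 0.818. Of 19 SR isoforms in 6 genes, 0 were called in usage by diffSpliceDGE (0 at an unadjusted p under 0.05), against 1.12% of all isoforms, while limma's diffSplice called SRSF1-205 alone. The shares of 2 of the 19 forms did not overlap between the groups, SRSF2-202 and SRSF11-201, which is near the 10.7% of all isoforms tested. SRSF11-201 made up 34.6%, 29.1%, 27.5% and 26.5% of its gene with shPTBP1 and 23.3%, 23.8%, 25.0% and 8.0% with shSCR (exact permutation test p = 0.0286, usage adjusted p = 1.0). The low shSCR value was that of replicate 4, and without it the difference of the means was 5.39 instead of 9.40 percentage points.

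Poison exons were taken as exons of decay-annotated transcripts that lie within an intron of the main transcript. A premature stop in the exon itself was not required. There were 17 such exons in 8 of the SR genes, and none in SRSF1 and SRSF5 met this definition. Inclusion was counted over transcripts with the exact exon, against those with an intron that spans it, so that transcripts which keep the intron around the exon entered neither side. A transcript typed as retained intron was counted as including where it listed the exact exon. Of the 17 exons, 7 in 5 genes had enough counts to be tested and 0 were called (diffSpliceDGE, 2 at an unadjusted p under 0.05, and 0 by limma's diffSplice), against 2.76% of all 651 poison exons tested. The exons of SRSF11 and SRSF4 that share transcripts are not independent of each other.

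The 3 exons of SRSF11 had fewer inclusion counts with shPTBP1. The 62-base exon (chr1:70230557-70230618) was counted 2, 3, 0 and 0 times in the shPTBP1 libraries and 2, 3, 6 and 6 times in the shSCR libraries, of 159 and 173 counts that could show it. Replicates 1 and 2 were equal in both groups, and the groups overlapped. The pooled inclusion was 3.14% (exact binomial 95% interval 1.03% to 7.19%) against 9.83% (5.83% to 15.3%), intervals that cover counting error only. The test gave an unadjusted p of 0.0422 and an adjusted p of 0.477. The exons of 109 and 117 bases downstream are included by the same transcript, SRSF11-217, and had adjusted p-values of 0.463 and 0.583. In SRSF11-217 they lie after its stop, which is in the 62-base exon.

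In SRSF2 a 104-base cassette (chr17:76735772-76735875) was counted 3, 2, 3 and 5 times with shPTBP1 and 5, 4, 4 and 3 times with shSCR, all in SRSF2-206, which GENCODE types as a retained-intron transcript. The decay-annotated SRSF2-204 that shares the exon was at 0. On the minus strand this exon lies after the stop codon of the coding isoforms SRSF2-202 and SRSF2-203 (chr17:76736161-76736163). The inclusion was 11.8% (95% interval 6.45% to 19.4%) against 4.80% (2.77% to 7.69%), with fewer spanning counts with shPTBP1 (110 against 333), and an adjusted p of 0.905. The 363-base exon of SRSF10 (chr1:23977911-23978273) had the most inclusion counts. It was included 10, 10, 9 and 13 times against 12, 5, 8 and 9 times, that is 2.51% (1.82% to 3.38%) and 2.34% (1.63% to 3.26%) of the counts, with an adjusted p of 0.991. All of these counts lay on SRSF10-202, a transcript without a defined reading frame, and the decay-annotated SRSF10-215 was at 0.

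The 175-base exon of SRSF4 (chr1:29165890-29166064) was counted 0, 5, 0 and 7 times with shPTBP1 and 0, 0, 3 and 0 times with shSCR, all in the retained-intron transcript SRSF4-207 (adjusted p = 0.561). The poison exons of SRSF3, SRSF6 and SRSF7, whose sequences are given above, were absent from nearly all mRNA counted. That of SRSF7 (chr2:38748898-38749346) was included 4, 1, 3 and 0 times with shPTBP1 and once in each shSCR library, of 2706 and 2556 counts (0.296% against 0.157%, adjusted p = 0.951). The exon of SRSF3 (chr6:36599821-36600276) was included once in each group, of 626 and 577 counts, and that of SRSF6 (chr20:43459153-43459420) once with shPTBP1 and 2 times with shSCR, of 786 and 714 counts. The 90-base exon of SRSF9 (chr12:120464733-120464822) was included 2 times and once, of 140 and 129 counts. The 95% intervals of inclusion reached at most 0.582% for SRSF7, 0.962% for SRSF3, 1.01% for SRSF6 and 5.07% for SRSF9 in either group, and changes within these limits were not detectable at this depth. All inclusion values are shares of the mRNA that was sequenced. How often an exon was included in splicing before decay was not measured.

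**Figure D5:**
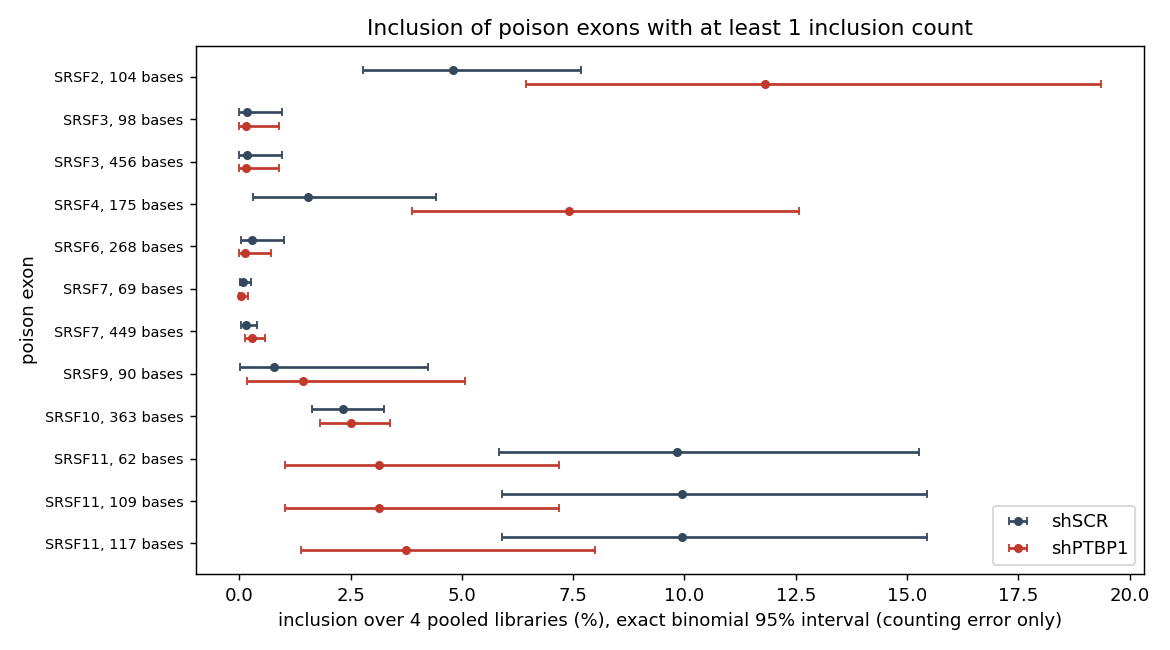
Inclusion of the SR poison exons with at least 1 inclusion count, in percent of the counts that could show the exon, pooled over 4 libraries per group, with exact binomial 95% intervals for counting error. The SRSF11 exons lie at 3.14% to 3.75% with shPTBP1 and 9.83% to 9.94% with shSCR, SRSF2 lies at 11.8% and 4.80%, and SRSF3, SRSF6 and SRSF7 lie under 0.5%.

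Around the SR proteins, 33 of 40 genes of kinases, importers, relatives and partners were tested, with a median log2 fold change of 0.05, and 2 were called higher and 0 lower, against 2.36% higher and 3.19% lower among all genes tested. TRA2B, an SR-like splicing activator that also has a poison exon in its own gene, was at 79.7, 114, 101 and 87.7 CPM with shPTBP1 and 59.0, 56.0, 74.0 and 70.6 CPM with shSCR (log2 fold change 0.56, edgeR adjusted p = 0.0242). RBM39, an SR-related protein that works with U2AF, was at 395, 380, 370 and 381 CPM against 302, 316, 309 and 301 CPM (log2 fold change 0.31, adjusted p = 0.00777). Neither gene overlapped between the groups. The other 31 were not called, among them the SRPK and CLK kinases that were tested. Of the partners, SRPK3, SRRM4 and U2AF1 were listed at 0, so their levels could not be read from these counts.

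Of 14 factors of nonsense-mediated decay, 12 were tested and 0 were called, with log2 fold changes from -0.38 to 0.37 and a median of -0.18. UPF1, the central helicase of the pathway, was listed at 0 in all libraries, so its level could not be read from these counts.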

How the data were processed

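The RNA of 8 MOLM-13 libraries (4 shPTBP1, 4 shSCR) was sequenced as amplified nanopore cDNA. The submitters' processing notes name hg38, minimap2, StringTie and DESeq2, with tool versions and annotation release not given in the sources used here. The paper also describes a filter on the mapping quality of the reads before counting. The authors deposited transcript counts, which are whole numbers and were taken here as raw counts, and a table titled TPM. The latter is in fact CPM from the authors (each count over its library's total, no length term) and served here as an alternative.

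Gene, transcript type and exons were looked up by Ensembl identifier in GENCODE version 44. Transcripts were classed as coding (protein_coding), decay-annotated (nonsense_mediated_decay or non_stop_decay), retained intron, or other. Genes kept by filterByExpr (minimum count 10) were fitted together in edgeR 4.0.16 (TMM, quasi-likelihood test, group as the only term), with calls made where the Benjamini-Hochberg adjusted p was under 0.05. Usage was tested with diffSpliceDGE for transcripts (also requiring a change of 10 percentage points), for classes, and for inclusion against skipping of poison exons (mean of at least 10 counts a library, at least 8 inclusion counts). Shares were compared by exact permutation tests. Tests of transcript and class levels were added after the values were seen. The edgeR tests of genes, isoforms, classes and poison exons were tried on simulated counts. The simulation gave all genes the same spread between libraries. It therefore does not show how the tests perform on SRSF2 or on exons with few counts.

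The text names all 10 genes, the most abundant coding and decay-annotated transcript of each, called transcripts, the most abundant retained-intron transcript where that class did not overlap, the poison exon with most counts per gene, PTBP1, and the called genes of the lists of 40 partners and 14 decay factors. SRSF1-203, SRSF1-205, SRSF2-203, SRSF2-206, SRSF11-201 and the further exons of SRSF11 were named after their values were seen. Members and lists were chosen with earlier results of these data known. Alternatives were DESeq2 1.42.0, limma-voom and limma's diffSplice (3.58.1), other size factors, filters, minimum changes and class definitions, the CPM table, a replicate block, and each library left out. Libraries with equal replicate numbers did not deviate together (residual correlations -0.03 to 0.01), so the numbers were not treated as pairing. Intervals (95%) and the limit that a count of 0 allows (3 counts over a group) cover only counting error, because amplified molecules are not independent. Software was R 4.3.3 and Python 3.11.15 (scipy 1.17.1, numpy 2.4.6, pandas 2.3.3, matplotlib 3.10.9).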

Additional observations from a re-analysis of the deposited data

Results flagged for a closer look

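Of 64 groups of 4 libraries checked for a value far from the other 3, 9 held one. Chance gives about 1 in 20 for normally distributed values. That rate does not hold where the other 3 libraries are tied, as in the shares of SRSF4 and the coding share of SRSF6. The gene shares are not independent of each other, and most of these values rest on few counts. SRSF6 was at 129 CPM in shSCR replicate 1. The coding share of SRSF1 was 82.6% in shSCR replicate 4, where SRSF1-203, a transcript without a defined reading frame, held 16 counts and was at 0 in all other libraries. In SRSF4 shSCR replicate 3 had a coding share of 92.3% and a retained-intron share of 7.69%, from 3 counts. The coding share of SRSF6 was 99.5% in shPTBP1 replicate 1, through 1 decay-annotated count. The coding share of SRSF11 was 67.3% in shPTBP1 replicate 4. Retained-intron shares stood apart in SRSF5 (7.05%, shPTBP1 replicate 4) and in SRSF10 (4.03%, shPTBP1 replicate 2, and 3.64%, shSCR replicate 1). None of these values belongs to SRSF2.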

How the results depend on the processing

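SRSF2 was called lower in each of the 15 alternatives tried, with DESeq2 (log2 fold change -1.41, adjusted p = 0.000666), limma-voom (-1.45, adjusted p = 0.0246) and the CPM table (-1.46, adjusted p = 0.0145) among them. With a replicate block its log2 fold change was -1.42 (adjusted p = 0.0169), and the block, with 1 SR gene and 0 classes, isoforms and poison exons called, changed no call. Leaving out each library in turn gave 1 SR gene called each time. The log2 fold change of SRSF11 ranged from -0.0851 to 0.0722 when single libraries were left out, above 0 without shPTBP1 replicate 3 (0.0722) or shSCR replicate 1 (0.0691), and was not called. The count of SR isoforms called in usage was 0 and became 1 with limma's diffSplice and without shSCR replicate 3, through SRSF1-205, and ranged from 0 to 1 over the libraries left out. The other 145 of 147 alternatives for log2 fold changes of the genes, and all 270 for class shares, kept their direction or moved by less than the replicate spread. Classes and poison exons stayed at 0 calls in every alternative run. SRSF2 rested on 21 to 138 counts per library and the poison exons of SRSF3 and SRSF6 on 1 or 2 per group, which limits what could be seen in them.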
